A study of Mus musculus with 4 samples.

Results

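Conjugating enzymes attach a water-soluble group to drugs, bile pigments, hormones and reactive by-products. The genes described here encode glutathione transferases (Gst and microsomal Mgst), sulfotransferases (Sult) and glycosyltransferases of the Ugt2 and Ugt3 families. They were chosen by symbol and by protein-coding biotype, a rule that uses no measured value. The input table lists 12883 genes, and 35 of them were members. Of the 7569 features of the immunoprecipitate table, which lists transcripts, 36 were members, from 24 genes. In all 37 genes were found, 22 of them in both tables, 13 in the input alone and 2 in the immunoprecipitate alone. The RefSeq mouse annotation holds 58 protein-coding genes whose symbols meet the same rule, and the other 21, among them every Sult2a and Sult3a gene, were not analysed here.

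The labels describe 4 groups of liver RNA: Fto knockout immunoprecipitate, Fto knockout input, wild-type immunoprecipitate and wild-type input. All are on the C57/Bl6 strain background, with 3 replicates stated for each. The sources used here give neither the age and sex of the mice nor the kind of Fto allele. The immunoprecipitate was made by miCLIP, in which an antibody against methylated adenosine is crosslinked to RNA and the bound fragments are cloned. Fto encodes a demethylase that removes methyl groups from N6-methyladenosine and from m6Am, the doubly methylated adenosine that can stand next to the cap when a transcript starts with A. The series asks how RNA methylation, that of small nuclear RNAs above all, depends on Fto.

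Glutathione transferases join glutathione to electrophiles such as lipid peroxidation products. Cytosolic classes are named by a letter (alpha, mu, pi, theta, zeta, omega), while kappa and microsomal forms sit in organelles and membranes. Sulfotransferases take sulfate from PAPS, and Ugt2 enzymes take glucuronic acid from UDP-glucuronate, both acting on phenols and steroids. Liver carries much of this work, and many of these genes lie in clusters of close paralogs, whose reads the authors' counting could split or share. Values of single paralogs are therefore uncertain.

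The stretches around the annotated transcription starts are shown because m6Am can form only where the first base is A. Each stretch runs from 20 bases before the RefSeq start to 10 bases from it on, on GRCm38.p6 (mm10), with the first transcribed base as the capital. Members with an unadjusted p under 0.05 in either table and Mgst1, the member with the highest immunoprecipitate mean, are given. Sult1b1 and Mgst1 have 2 annotated starts each.
Ugt2b34, chr5:86906928-86906957, minus strand: aatcatcctttggaaggcagGcctgaagtt
Gsta3, chr1:21240565-21240594, plus strand: gggcgtattcaaatttaataAgtagcttac
Gstm2, chr3:107986411-107986440, minus strand: gctcagactagcaaggcccgGgttggtctg
Sult1b1, chr5:87536213-87536242, minus strand: gggctgagcccacagtacatAagcagcatg
Sult1b1, chr5:87538186-87538215, minus strand: gatccttattgaactttttaTtctcctttc
Sult1d1, chr5:87568997-87569026, minus strand: gtcttataattatcaccctgGggagtttat
Sult1a1, chr7:126676409-126676438, minus strand: tagcactgtttccacttcctCccacttggg
Ugt2b38, chr5:87424194-87424223, minus strand: aagcagtgacaaaagtaaatGgactgtgaa
Mgst1, chr6:138140507-138140536, plus strand: gcctgaaaaagggcggtgccAgcgcgggtc
Mgst1, chr6:138141567-138141596, plus strand: ctgcagatagcactggggcaAaatatgaca

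RefSeq starts were found for 34 of the 37 genes, 43 starts in all, and 16 of the 43 (37.2%) had A as first base. Among all 21263 starts of protein-coding genes 37.4% had A. For members with an immunoprecipitate feature the share was 36.7% (11 of 30). The start used in these livers was not measured. Ugt2b34, Gstm2, Sult1d1, Sult1a1 and Ugt2b38 had no A at the start shown, whereas Gsta3, both starts of Mgst1 and 1 of the starts of Sult1b1 had it. The starts shown for Gsta3 and Sult1a1, the A start of Sult1b1 and 1 of the Mgst1 starts lay inside the RefSeq gene, not at its edge. At the gene edge Sult1b1 had T, so which genes have A depends on the start taken.

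The input comparison of Fto knockout with wild-type liver addresses RNA levels. No member passed the authors' adjusted p of 0.05, where 0.0389% of all tested genes did. At an unadjusted p under 0.05 there were 4 of 35 members, against 2.21% of all tested genes. These were Sult1d1, Gstm2 and Sult1a1, with positive fold changes, and Ugt2b38, with a negative one. Log2 fold changes are the authors', knockout over wild type, and each is given with its standard error (SE). Their direction was read from Fto itself, at −1.49 (SE 0.27, adjusted p = 3.52e-04) per the authors' deposited table. Means are the authors' normalized counts over all libraries of a table and are not divided by transcript length. No input gene had an SE above 0.30, though means went down to 1.09. S100a8, at a mean of 4.47, had a smaller SE (0.14) than Mgst1 (0.23) at a mean of 4884. The input SE thus need not reflect read number, and intervals built on them share this limit. Whether the fit drew input folds toward 0 is not stated. Values per replicate were not analysed here, so no spread over single libraries is given.

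Over the 35 members the median log2 fold change in the input was 0.10, and 24 lay above 0 (68.6%), against a median of 0.02 and 53.5% over all input genes. Members ranged from −0.67 to 0.80 at means from 4.33 to 4884. The called genes of the whole table were 1.08 or more in size, beyond the range of every member. Hepatocyte markers were present in the input, with Alb at a mean of 84262, and 0 of 7 passed, against 0.0389% of all tested genes. At that share a count of 0 in a short list says little about cell numbers. Markers of other liver cells did not pass in any list: macrophages (0 of 8, median −0.02), endothelium (0 of 6, median 0.12), stellate cells (0 of 6, median −0.00) and bile duct cells (0 of 5, median 0.00). None of the 4 red cell and neutrophil markers with a p passed. All 4 red cell genes lay below 0, with Alas2 at −0.99 (SE 0.29, unadjusted p = 4.92e-04), Hbb-b1 at −0.52, Hba-a1 at −0.48 and Hbb-b2 at −0.32 per the authors' deposited table. Both neutrophil genes lay above 0, with S100a9 at 0.52 (SE 0.26, unadjusted p = 0.0499) and S100a8 at 0.14 per the authors' deposited table. The part of these cells in the members' values was not tested. Of 6 lymphocyte markers 1 was in the table. In bulk RNA, fewer cells of a type and less RNA per cell cannot be told apart.

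**Figure D1:**
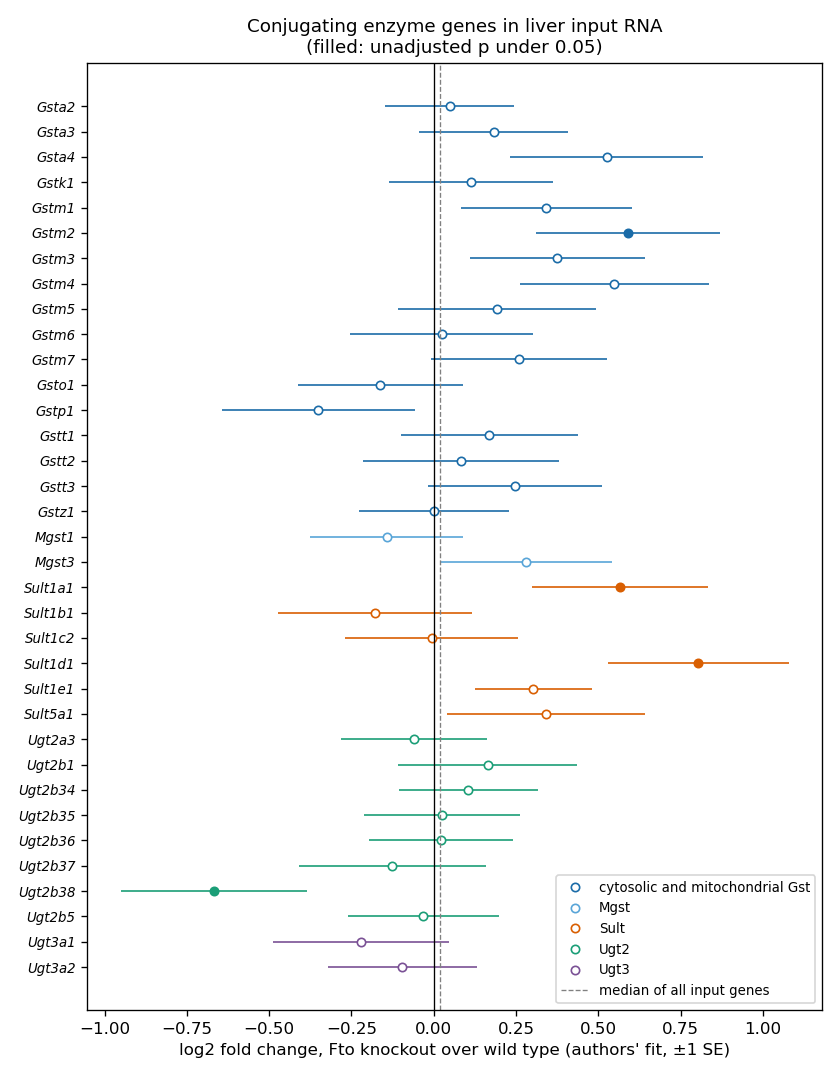
Log2 fold change (Fto knockout over wild type) of the 35 members in the input, by family, with bars of ±1 SE from the authors' deposited table and filled points at an unadjusted p under 0.05. The highest point is Sult1d1 at 0.80 and the lowest is Ugt2b38 at −0.67.

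Among sulfotransferases, Sult1d1, which in the mouse acts on catecholamines and other small phenols, had the lowest p of all members. In the authors' deposited table its log2 fold change in the input was 0.80 (SE 0.27, unadjusted p = 0.00339, adjusted p = 0.9998), at a mean of 214. This is a 1.75-fold higher fitted level in knockout liver, with a 95% interval from 0.27 to 1.34 on the log2 scale. Sult1a1, the phenol sulfotransferase, stood at 0.57 (SE 0.27, unadjusted p = 0.0342) at a mean of 325 per the authors' deposited table. Neither passed after adjustment over the table.

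The other sulfotransferases were less clear of their errors. Sult1e1, which inactivates oestrogens, stood at 0.30 (SE 0.18) and Sult5a1 at 0.34 (SE 0.30) per the authors' deposited table. Sult1b1, which acts on thyroid hormones, stood at −0.18 (SE 0.29), and Sult1c2 at −0.01 (SE 0.26) with a mean of only 4.33, per the authors' deposited table. For the 6 genes the median was 0.32, with 4 above 0.

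Glutathione transferases had 15 of 17 genes above 0 in the input, with a median of 0.18, and none called. The 7 mu class genes, which lie side by side on chromosome 3, were all above 0, with a median of 0.34. In the authors' deposited table Gstm2 stood at 0.59 (SE 0.28, unadjusted p = 0.0353, mean 55.6), and its neighbour Gstm4 at 0.55 (SE 0.29, unadjusted p = 0.0552, mean 99.4). Gstm1, at a mean of 500.1, was at 0.34 (SE 0.26) and Gstm3 at 0.38 (SE 0.27) per the authors' deposited table. Gstm7 at 0.26, Gstm5 at 0.19 and Gstm6 at 0.02 were each within 1 SE of 0 per the authors' deposited table. Close copies of this class can share reads, so 7 values of the same sign are not 7 independent observations.

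Alpha class genes were also above 0. Gsta4, whose enzyme conjugates the lipid peroxidation product 4-hydroxynonenal, stood at 0.53 (SE 0.29, unadjusted p = 0.0726) per the authors' deposited table. Gsta3, which in the mouse detoxifies aflatoxin epoxide, was at 0.18 (SE 0.23) with a mean of 2133, and Gsta2 at 0.05 (SE 0.20) with a mean of 9.52, per the authors' deposited table. The 3 theta class genes, neighbours on chromosome 10, lay between 0.08 (Gstt2) and 0.25 (Gstt3), each within 1 SE of 0.

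Classes with only 1 gene among the input members stood near or below 0. Gstp1, the pi class enzyme, which is known to be higher in male than in female mouse liver, had the lowest value of the family at −0.35 (SE 0.29, unadjusted p = 0.232) and a mean of 535 per the authors' deposited table. Gsto1 stood at −0.16 (SE 0.25) and the kappa class gene Gstk1 at 0.11 (SE 0.25) per the authors' deposited table. Gstz1, which also works in tyrosine breakdown, was at 0.00 (SE 0.23) with a mean of 786 per the authors' deposited table. Its 95% interval ran from −0.45 to 0.45.

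Microsomal forms gave 1 value on each side. Mgst1, a membrane enzyme of the endoplasmic reticulum and outer mitochondrial membrane, had the highest mean of the members, 4884, and stood at −0.14 (SE 0.23) per the authors' deposited table. Mgst3 stood at 0.28 (SE 0.26) with a mean of 26.9 per the authors' deposited table.

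The 8 Ugt2 genes of the input had a median of −0.00, with 4 above 0, and 7 of them were within 1 SE of 0. The exception was Ugt2b38 at −0.67 (SE 0.28, unadjusted p = 0.0182, adjusted p = 0.9998) per the authors' deposited table, a 0.629-fold fitted level in knockout liver. Its mean was 7.53, among the lowest of the members. The Ugt2 genes with more reads stayed close to 0. In the authors' deposited table Ugt2b1 was at 0.16 (SE 0.27, mean 919), Ugt2b34 at 0.10 (SE 0.21, mean 760) and Ugt2b36 at 0.02 (SE 0.22, mean 697). Ugt2b5, with a mean of 415, was at −0.03 (SE 0.23), Ugt2b35 at 0.02, Ugt2a3 at −0.06 and Ugt2b37 at −0.13 per the authors' deposited table.

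Ugt3 enzymes use other sugars than glucuronic acid. Ugt3a1 stood at −0.22 (SE 0.27, mean 52.6) and Ugt3a2 at −0.10 (SE 0.23, mean 323) per the authors' deposited table, both below 0 and within 1 SE of it. No Ugt3 transcript was among the immunoprecipitate features analysed here.

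Ugt2 and Sult1 genes share a stretch of chromosome 5 from Ugt2b34, which begins at position 86889770, to Sult1e1, which ends at 87591611 (GRCm38.p6). In it 11 input members lie, with a median of 0.02 and 6 above 0. Members at its Sult1e1 end had the widest spread: Ugt2b38 at −0.67, Sult1b1 at −0.18, Sult1d1 at 0.80 and Sult1e1 at 0.30 per the authors' deposited table. On chromosome 3 the Gstm genes run from 107895854 to 108045179, in the order Gstm5, Gstm7, Gstm6, Gstm3, Gstm2, Gstm1, Gstm4. Those from Gstm3 on lay at 0.34 or above and the first 3 at 0.26 or below, an arrangement that was not tested.

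**Figure D2:**
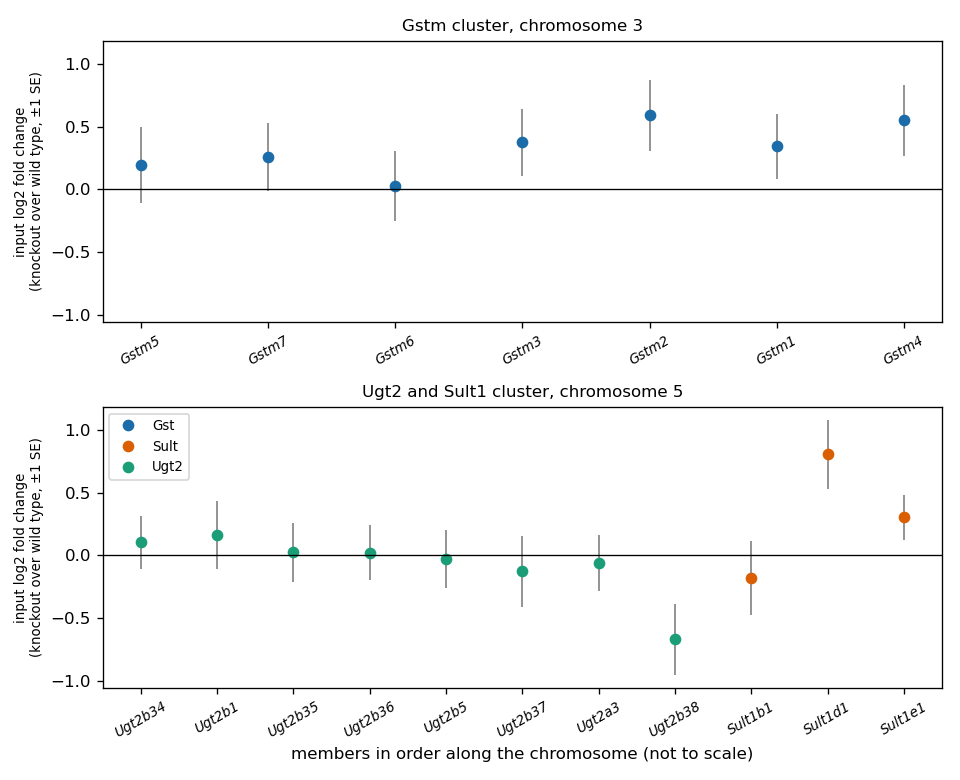
Input log2 fold change (Fto knockout over wild type, bars ±1 SE, authors' deposited table) of the members of the Gstm cluster on chromosome 3 and of the Ugt2 and Sult1 cluster on chromosome 5, in chromosome order and not to scale. All 7 Gstm points lie above 0, while the Ugt2 points lie near 0 except for Ugt2b38 at −0.67.

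Paralogy shows in the promoters too, taken from 250 bases before to 50 bases after the RefSeq start. The longest word shared by at least 4 of the 7 Ugt2b promoters was GATAAAAGGTCAAGCAGTGACA, of 22 bases, found in Ugt2b5, Ugt2b36, Ugt2b37 and Ugt2b38. A search of both strands of all 21263 promoters met it in these 4 alone (0.0188%). The search rule was set after the starts had been looked at. The word is in capitals in the stretches here, and begins 28, 31, 45 and 31 bases before the start.
Ugt2b5, chr5:87140339-87140376, minus strand: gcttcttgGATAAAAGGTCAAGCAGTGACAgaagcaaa
Ugt2b36, chr5:87092557-87092594, minus strand: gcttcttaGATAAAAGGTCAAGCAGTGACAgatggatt
Ugt2b37, chr5:87254804-87254841, minus strand: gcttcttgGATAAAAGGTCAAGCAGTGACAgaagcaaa
Ugt2b38, chr5:87424205-87424242, minus strand: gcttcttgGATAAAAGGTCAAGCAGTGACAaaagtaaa
The input values of these 4 genes were −0.03, 0.02, −0.13 and −0.67 per the authors' deposited table, so genes that share the word lay both near 0 and furthest below it.

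The antioxidant response element, through which NRF2 raises many Gst genes, was sought by its core TGACNNNGC on both strands. It was present in 4 of the 43 member promoters (9.30%), against 13.0% of all promoters. The core is in capitals in the stretches given here, and begins 121, 42, 129 and 56 bases before the start. For Gstm7 this is the more downstream of its annotated starts, and the core lies past the upstream one. In Mgst1 it is on the opposite strand.
Gsta3, chr1:21240454-21240482, plus strand: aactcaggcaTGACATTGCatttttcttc
Gstm5, chr3:107895802-107895830, plus strand: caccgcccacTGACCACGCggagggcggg
Gstm7, chr3:107931725-107931753, minus strand: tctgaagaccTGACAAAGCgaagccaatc
Mgst1, chr6:138140461-138140489, plus strand: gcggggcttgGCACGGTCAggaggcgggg
The input values of these genes were 0.18, 0.19, 0.26 and −0.14 per the authors' deposited table. The core was not found in the promoters of Gstm2 and Gstm4, the glutathione transferases furthest above 0, and Gsta4 was not searched. Only 250 bases before to 50 bases after each start were searched. A part of NRF2 in the members' values was not tested.

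Genes that supply or control conjugation were then read in the input, from lists chosen with earlier results of these data known. None passed the adjusted threshold, against 0.0389% of all tested genes. Genes of glutathione supply had a median of 0.03 (8 of 15 above 0). Mat1a, which makes S-adenosylmethionine, stood at 0.42 (SE 0.27) and Glrx, a glutathione-dependent reductase gene, at 0.43 (SE 0.28) per the authors' deposited table. Genes that make and move PAPS, the sulfate donor, had a median of 0.05 (6 of 9 above 0), with the transporter genes Slc35b3 at −0.27 and Slc26a2 at 0.23 per the authors' deposited table. Genes of UDP-glucuronate supply had a median of 0.06 (4 of 7 above 0). Slc35d1 stood at −0.28, Pgm1 at 0.34 (mean 9.20) and Pgm2 at 0.06 (mean 336) per the authors' deposited table. These symbols are the authors', some of them older ones, so their Pgm1 need not be the gene now so named.

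Regulators had 5 of 14 genes above 0 and a median of −0.07. Ahr, the receptor for dioxins and other aromatic ligands, stood at 0.78 (SE 0.23, unadjusted p = 7.18e-04, adjusted p = 0.553) per the authors' deposited table. Ppara, the lipid receptor gene, stood at −0.51 (SE 0.24, unadjusted p = 0.0335) per the authors' deposited table. Other NRF2 targets had a median of −0.02 (4 of 11 above 0), with Ephx1, the epoxide hydrolase gene, at −0.48 (SE 0.23, unadjusted p = 0.0396) and Hmox1 at 0.34 per the authors' deposited table. These targets and the glutathione transferases, with 15 of 17 above 0, thus had different shares above 0, a difference that was not tested.

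**Figure D3:**
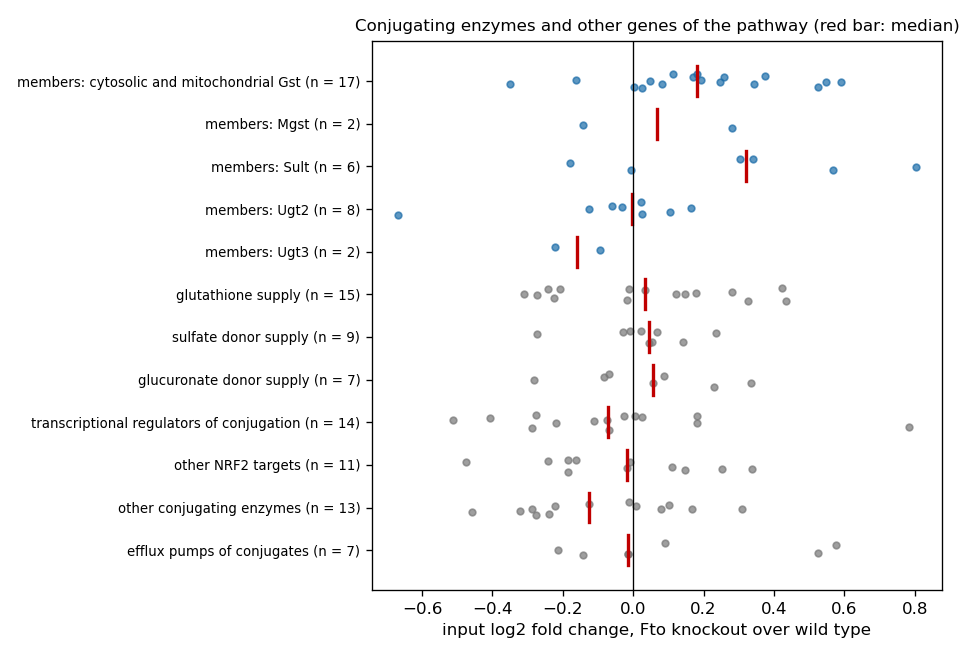
Input log2 fold change (Fto knockout over wild type, horizontal axis, authors' deposited table) of each gene in the member families and in 7 lists of other pathway genes, with red bars at the medians. The median is 0.32 for the sulfotransferases and 0.18 for the glutathione transferases, while the 7 other lists have medians from −0.13 to 0.06.

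The immunoprecipitate comparison of Fto knockout with wild-type liver addresses how many reads of each transcript were recovered with the antibody. Such reads depend on RNA level as well as on binding. Whether the fit took RNA level into account is not stated. The table does not state the direction of its fold changes. They are read here as knockout over wild type, and all immunoprecipitate signs would turn under the opposite reading. Called lower were 2 of the 22 member features with an adjusted p, against 3.79% of all features with one, and none was called higher, against 0.895%. Both called features are transcripts of Ugt2b34 with identical values, so they are 1 observation of 1 gene. Lower and higher follow the sign of the printed fold, which the p need not test. At an unadjusted p under 0.05 there were 6 lower of the 35 member features with a p, against 8.52% of all features with one. The 36 features had a median of −0.82, with 7 above 0 (19.4%), against −1.59 and 29.5% over all features. The member median thus lay 0.77 above that of all features, and signs near 0 depend on the scaling. This member median is itself a value that recurs in 842 features of the table. Without repeated values the members had a median of −1.39.

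Ugt2b34 encodes a liver glucuronosyltransferase. It stood at −7.66 (SE 1.98, adjusted p = 0.0423) in the immunoprecipitate, at a mean of 19.9, per the authors' deposited table. The 95% interval from that SE ran from −11.53 to −3.78. After subtraction of the median of all features it stood at −6.06. In the input the same gene was at 0.10 (SE 0.21), with an interval from −0.31 to 0.52. Folds and SE of the input and the immunoprecipitate span very different ranges, so these sizes are not comparable. Adjusting the authors' p over the features with a p in the table gave 0.112, and the call ended.

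Other Ugt2 transcripts in the immunoprecipitate were not called. Ugt2b35 stood at −5.15 (SE 2.41, unadjusted p = 0.0804, mean 11.6) and Ugt2a3 at −3.86 (SE 1.92, unadjusted p = 0.0597, mean 18.6) per the authors' deposited table. The Ugt2 members with higher immunoprecipitate means were closer to 0, with Ugt2b5 at −1.39 (SE 1.37, mean 70.1) and Ugt2b36 at −0.87 (SE 1.52, mean 30.3) per the authors' deposited table. Ugt2b1 stood at 0.05 (SE 2.38) and Ugt2a2, seen in the immunoprecipitate alone, at −0.82 (SE 3.92) with a mean of 2.59 per the authors' deposited table.

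**Figure D4:**
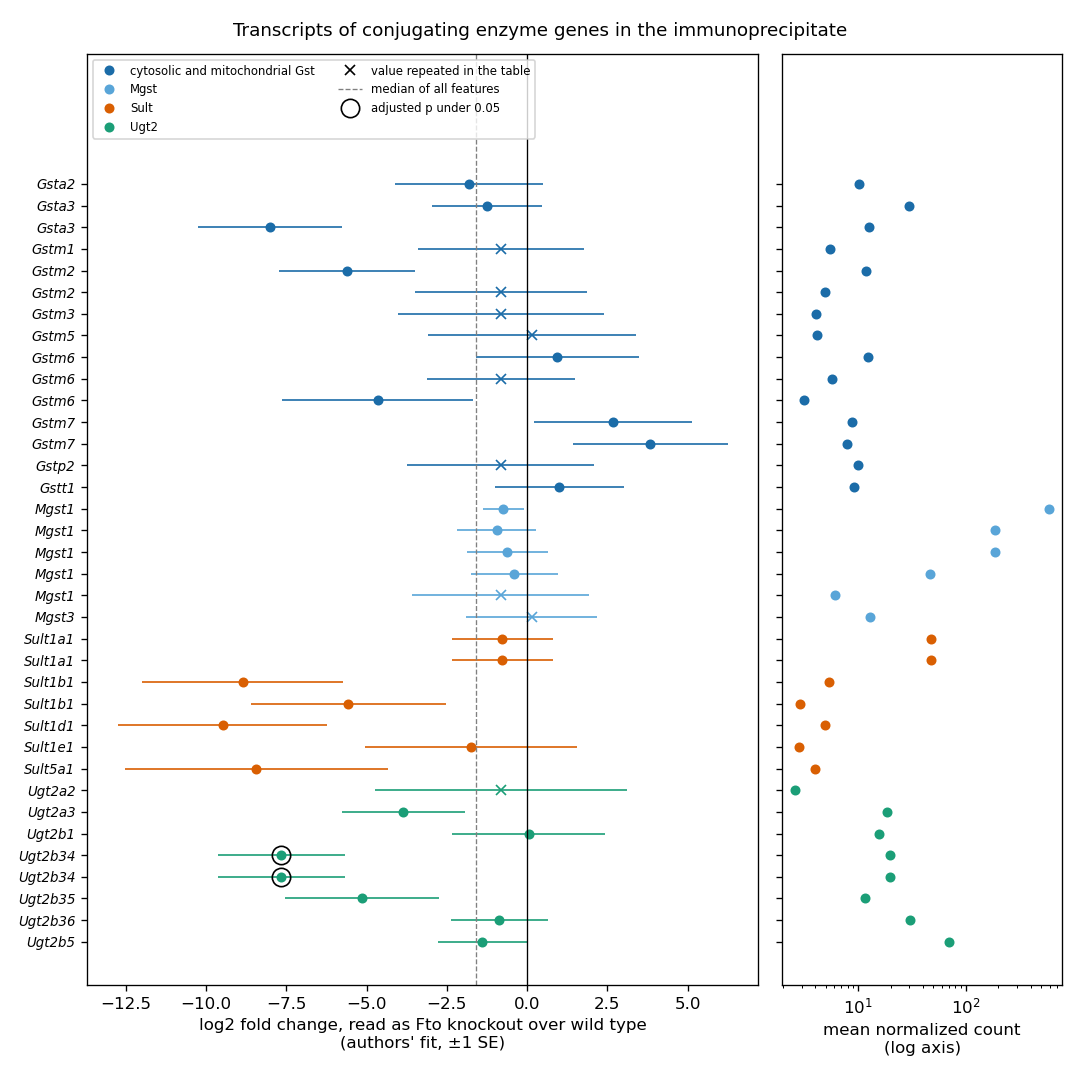
Log2 fold change (read as Fto knockout over wild type, ±1 SE) and mean normalized count (log axis) of the 36 member transcripts in the immunoprecipitate, from the authors' deposited table. Rings mark the 2 called Ugt2b34 transcripts at −7.66, crosses mark 9 transcripts whose value recurs across the table, and the 4 Mgst1 transcripts with the highest means lie between −0.95 and −0.40.

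Sulfotransferase transcripts, 7 features of 5 genes, all lay below 0 with a median of −5.58, though Sult1a1 lay above 0 (0.81) once the median of all features was subtracted, and none was called. Sult1d1 stood at −9.49 (SE 3.27, unadjusted p = 0.0240) and 1 Sult1b1 transcript at −8.86 (SE 3.14, unadjusted p = 0.0369), at means of 4.96 and 5.33, per the authors' deposited table. The other Sult1b1 transcript stood at −5.58 (SE 3.04), Sult5a1 at −8.45 (SE 4.10) and Sult1e1 at −1.75 (SE 3.29) per the authors' deposited table. Their means were 2.80 to 4.02. All of these and the preceding pair lacked an adjusted p and rest on few reads. Sult1a1, at a mean of 47.9, stood at −0.78 (SE 1.57) for a pair of transcripts with identical values per the authors' deposited table. Sult1d1 had −9.49 in the immunoprecipitate, beside 0.80 in the input, and both would lie above 0 if the immunoprecipitate were read the other way. No test between the tables was made, since they were normalized separately. Their scales also differ. Immunoprecipitate folds ran from −25.05 to 22.89 with SE up to 4.41, and input folds from −1.49 to 1.36 with SE up to 0.30.

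Glutathione transferase transcripts had 5 of 15 features above 0 and a median of −0.82, which is again the repeated value. Per the authors' deposited table, 1 Gsta3 transcript stood at −8.02 (SE 2.245, adjusted p = 0.0523, mean 12.7), just outside the threshold. The other Gsta3 transcript, at a mean of 29.9, stood at −1.25 (SE 1.71) per the authors' deposited table, so transcripts of 1 gene differed by more than 6 on the log2 scale. Gstm2 likewise had 1 transcript at −5.61 (SE 2.11, unadjusted p = 0.0192, mean 11.8) and another at −0.82 (SE 2.67, mean 4.91) per the authors' deposited table. Gsta2 stood at −1.81 (SE 2.31) per the authors' deposited table, with a mean of 10.1 that was close in number to its input mean of 9.52, whereas Gsta3 had 29.9 and 2133.

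Of the 15 Gst features, the 5 above 0 were of the mu and theta classes. Gstm7 stood at 3.83 (SE 2.42, adjusted p = 0.495) and 2.66 (SE 2.46) for its pair of transcripts per the authors' deposited table. Gstm6 had transcripts at 0.93, −0.82 and −4.66 per the authors' deposited table, with SE from 2.31 to 2.98. Gstt1 stood at 1.005 (SE 1.997) and Gstm5 at 0.14 (SE 3.24) per the authors' deposited table. Gstp2, the pi class paralog that was seen here while Gstp1 was seen in the input, stood at −0.82 (SE 2.91) per the authors' deposited table.

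Mgst1 gave the most reads of the members, 69.1% of their summed immunoprecipitate means over 5 transcripts, though reads of shared exons may be counted more than once. Its most abundant transcript stood at −0.74 (SE 0.64, adjusted p = 0.808) at a mean of 597 per the authors' deposited table. The 95% interval ran from −1.99 to 0.51, the narrowest of the member transcripts. The next ones stood at −0.95 (SE 1.22, mean 187), −0.62 (SE 1.26, mean 186, without a p) and −0.40 (SE 1.35, mean 46.2) per the authors' deposited table. In the input Mgst1 was at −0.14 (SE 0.23). Mgst3 stood at 0.14 (SE 2.04) in the immunoprecipitate per the authors' deposited table.

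Repeated values limit what the immunoprecipitate shows of these genes. A log2 fold change of −0.82, the same to 3 decimals, recurred in 842 features of the table, and 0.14 in 271. Of the 36 member transcripts 9 carried one of these values. At −0.82 were Gstm1, Gstm3, Gstp2, Ugt2a2 and 1 transcript each of Gstm2, Gstm6 and Mgst1, and at 0.14 were Gstm5 and Mgst3. Their means were between 2.59 and 12.9. Such a value is not a measurement particular to its transcript, and the median of the other 27 was −1.39.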

How the data were processed

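Liver RNA was measured by miCLIP in immunoprecipitates and inputs. The submitters' processing notes name STAR, bedtools 2.25.0, DESeq2 and mm10, with no role stated, and say nothing of counting rules or model formulas. Per the file headers, the authors deposited for each feature a mean normalized signal (scaled read counts averaged over libraries), a log2 fold change with its standard error, a test statistic (a score) and raw and adjusted p-values. Depth per library is unknown. Whether replicates were separate animals is not said, and the p-values reflect only sample-to-sample spread, possibly technical.

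The input statistic equalled fold change over standard error. In the immunoprecipitate the p-value was the chi-square tail with 1 degree of freedom of a statistic that ranked features like, but not identically to, the squared ratio of fold to error (Spearman 0.827 across features), so printed fold and p need not test the same term. An adjusted p-value was present for 2347 of 7569 immunoprecipitate features.

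Members were read out of the whole tables with pandas 2.3.3, and features were called at the authors' adjusted p under 0.05. The 95% intervals are the fold change ± the normal quantile times its error. The members' rule reads only symbol and biotype, but the choice of this gene group and of the lists was made with earlier results of these data known. The rule for named genes was every member with an unadjusted p under 0.05, the 3 members of each family with the highest input means, every immunoprecipitate member, and the 2 genes of lowest input p in each other list. The remaining members were named, after their values had been seen, so that each input member is accounted for. The marker genes and the immunoprecipitate values of Ppara, Nr1i2, Nr1i3 and Nr1h4 were also named after values had been seen. Positions and promoters come from RefSeq, GRCm38.p6. All 35 input members carry current symbols. The p from fold over error and its adjustment were tested on simulated data with the input errors and large added effects. That setting does not cover the immunoprecipitate, where this p was used, or its repeated values.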

Additional observations from a re-analysis of the deposited data

How the results depend on the processing

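No member was called in the input by the authors' adjusted p, by Benjamini-Hochberg adjustment over the table or at a mean of at least 10, and 4 had an unadjusted p under 0.05. In the immunoprecipitate the 2 called features became 0 with adjustment over the table, 1 with 1 feature per gene, 6 at an unadjusted p under 0.05 and 5 with a p from fold over standard error (13.9% of member features, against 8.01% of all features called lower that way). Those 5 were the Ugt2b34 pair and 1 transcript each of Gsta3, Sult1d1 and Sult1b1, and the cause was not tested. The median of the input members was between 0.09 and 0.16 under every alternative run. That of the immunoprecipitate members was between −1.39 and −0.82 over subsets, but 0.77 after subtracting the median of all features and 0.00 after subtracting that of features with a mean of at least 10, the second chosen after seeing the data. So the sign of the member median depends on the scaling. The member median and that of features with a mean of at least 10 are both the repeated value of −0.82. With the median of all features subtracted, 9 genes changed sign in the immunoprecipitate by their most abundant transcript: Gstm1, Gstm3, Gstp2 and Ugt2a2 (0.77 each), Gsta3 (0.34), Mgst1 (0.85), Sult1a1 (0.81), Ugt2b36 (0.72) and Ugt2b5 (0.20). Gstz1 became −0.017 in the input. No paired analysis was possible because the tables hold no values of single replicates, and for the same reason none could be left out.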

Other observations

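Enzymes of other conjugation reactions and the pumps that export conjugates had no called gene in the input, against 0.0389% of all tested genes. Acetyl-, methyl- and amino acid transferase genes had a median log2 fold change of −0.13 (5 of 13 above 0), with Hnmt, which methylates histamine, at −0.46 (SE 0.30) and Nnmt, which methylates nicotinamide, at 0.31 (SE 0.25) per the authors' deposited table. Efflux pump genes had a median of −0.01 (3 of 7 above 0), with Abcb1a at 0.58 (SE 0.28, unadjusted p = 0.0404, mean 5.71) and Abcc4 at 0.53 (SE 0.30, mean 13.1) per the authors' deposited table.

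In the immunoprecipitate 11 of the 20 regulator features had an adjusted p, and 1 of the 11 was called, lower, against 3.79% called lower of all features with one. It was a Ppara transcript at −10.47 (SE 1.65) per the authors' deposited table. Other Ppara transcripts, at −6.11 (adjusted p = 0.204) and −4.97 (adjusted p = 0.222), were not called. Nr1i2, which encodes the xenobiotic receptor PXR, stood at −8.93 (SE 2.39, unadjusted p = 0.0297, adjusted p = 0.174) in the immunoprecipitate per the authors' deposited table. In the other direction, 1 Nr1h4 transcript stood at 7.21 (SE 2.73, unadjusted p = 0.0741, adjusted p = 0.281) per the authors' deposited table. Its other transcript was at the repeated value of 0.14. A pair of transcripts of Nr1i3, which encodes the receptor CAR, had identical values of 5.31 (SE 1.63, adjusted p = 0.483), so they are 1 observation. Another Nr1i3 transcript, with the higher mean of 33.0, stood at 1.90 (SE 1.67, unadjusted p = 0.840) per the authors' deposited table. The fold of the Nr1i3 pair was more than 3 times its error while its p was not small, so the printed fold and p do not rank features alike. No feature of the other pathway lists was called in the immunoprecipitate. Of features with an adjusted p, these were 0 of 8 for glutathione supply and 0 of 3 for sulfate donor supply. They were 0 of 1 for glucuronate donor supply, 0 of 4 for other NRF2 targets and 0 of 1 for other conjugating enzymes. No pump feature had an adjusted p. Over all features with one, 3.79% were called lower and 0.895% higher.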
